A study of Mus musculus with 18 samples.

Results

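The genes described here encode enzymes that split esters or reduce and oxidise alcohols, aldehydes and ketones: carboxylesterases (Ces), alcohol dehydrogenases (Adh), aldehyde dehydrogenases (Aldh) and aldo-keto reductases (Akr). All genes whose symbol starts with one of these family names followed by a digit were taken, except the retinal dehydrogenases Aldh1a1, Aldh1a2 and Aldh1a3. This gave 56 genes of the 19719 named on the array: 16 Ces, 6 Adh, 18 Aldh and 16 Akr genes. Another 6 mouse genes that fit the rule had no probe named for them (Adh6b, Akr1c13, Ces1a, Ces2d-ps, Ces2h and Ces3a). The study set intestinal organoids of converted cells against those of native intestine, with fibroblasts and liver-like cells as further references. RNA of cultured C57BL/6 mouse cells was hybridised to 18 1-colour whole-genome arrays, 3 arrays for each of 6 groups. Fibroblasts from mouse embryos (MEF) and hepatocyte-like cells made from such fibroblasts (iHep) formed the first array set, which the submitters mark as a re-analysis of earlier arrays. Budding organoids came either from intestinal stem cells made by induction (iISC) or from crypts of adult gut (Crypt). Cultures holding spherical as well as budding organoids were grown from induced progenitors of the fetal intestinal kind (iFIPC) or from the fetal intestine itself (FI). The labels give no genotype, age, medium or time in culture, do not name the factors used for conversion, and do not say whether replicates were separate cultures, so p-values measure the spread between these samples, which may be technical. The titles of the 3 iHep arrays carry codes that differ between them and are not explained, and nothing ties the MEFs on the arrays to the cells that were converted.

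Carboxylesterases hydrolyse esters, amides and thioesters, among them many drugs and the stored lipids of liver and gut. Alcohol dehydrogenases turn ethanol, retinol and other alcohols into aldehydes, and aldehyde dehydrogenases oxidise aldehydes further to acids, including aldehydes formed when amino acids such as proline and lysine are broken down. Aldo-keto reductases work the other way, reducing aldehydes and ketones, among them sugars, steroids and products of lipid oxidation. Liver and small intestine are the main sites of this chemistry, and several of the genes lie in clusters of near-identical copies.

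A level is given here as log2 of the signal minus the 75th percentile of the array, so that 0 stands for that percentile, and each gene is represented by its brightest probe. That percentile ranged from 712.6 to 1476.1 intensity units over the arrays, and the scanner software marked 56.12 to 68.65% of probes as well above background. MEF arrays 2 and 3 were nearly identical (their differences had an SD of 0.119 log2, against 0.238 to 0.683 in the other 17 pairs of a group) and were averaged, since they may be 1 RNA hybridised again, which leaves 2 MEF samples in every test. The organoid arrays were scanned and extracted with another scanner and software version than the MEF and iHep arrays, and the 7 spike-in controls were brighter on the older set by 0.52 to 1.2 log2. Array set and group cannot be told apart in any comparison of organoids with MEF or iHep cells. Markers fixed for the labelled kinds of cell fitted them in part: summed linear fibroblast marker levels were 869 to 957 in MEFs and 0.135 to 4.02 in organoids, and all 9 enterocyte markers were well above background on every organoid array. The iHep arrays held 7 of 8 hepatocyte markers with a probe (summed level 232 to 1110, against at most 11.4 elsewhere). But they also held fibroblast markers (53.1 to 163), stomach markers (105 to 419) and goblet cell markers (258 to 588, against 91.7 to 206 in organoids). The iFIPC arrays held stomach markers too (41.4 to 333), against at most 4.67 in MEF, FI, iISC and Crypt.

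Of the 56 genes, 47 were well above background on all arrays of at least 1 group, and these could be tested. The probes of Adh6-ps1, Akr1c20, Akr1cl, Ces4a and Ces5a were not well above background on any array. The other 4, Akr1c21, Akr1c6, Akr1d1 and Aldh3b3, passed on at most 4 arrays. Akr1d1, the steroid reductase of bile acid synthesis, and Akr1c6, a liver steroid dehydrogenase, were not well above background on any of the 3 iHep arrays. A gene is called changed here when it differed by at least 1 log2 and its p in the limma fit, adjusted over all genes by the Benjamini-Hochberg method, was under 0.05, and errors of differences are standard errors of that fit. In at least 1 of the 9 comparisons of groups, 44 genes were called. The map of all members shows the pattern in outline: most Ces genes, Adh4, Adh6a, Aldh1b1, Akr1c12 and Akr1c19 were lowest in MEFs and highest in the adult-type organoids, while a few genes, such as Aldh7a1, ran the other way.

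**Figure D1:**
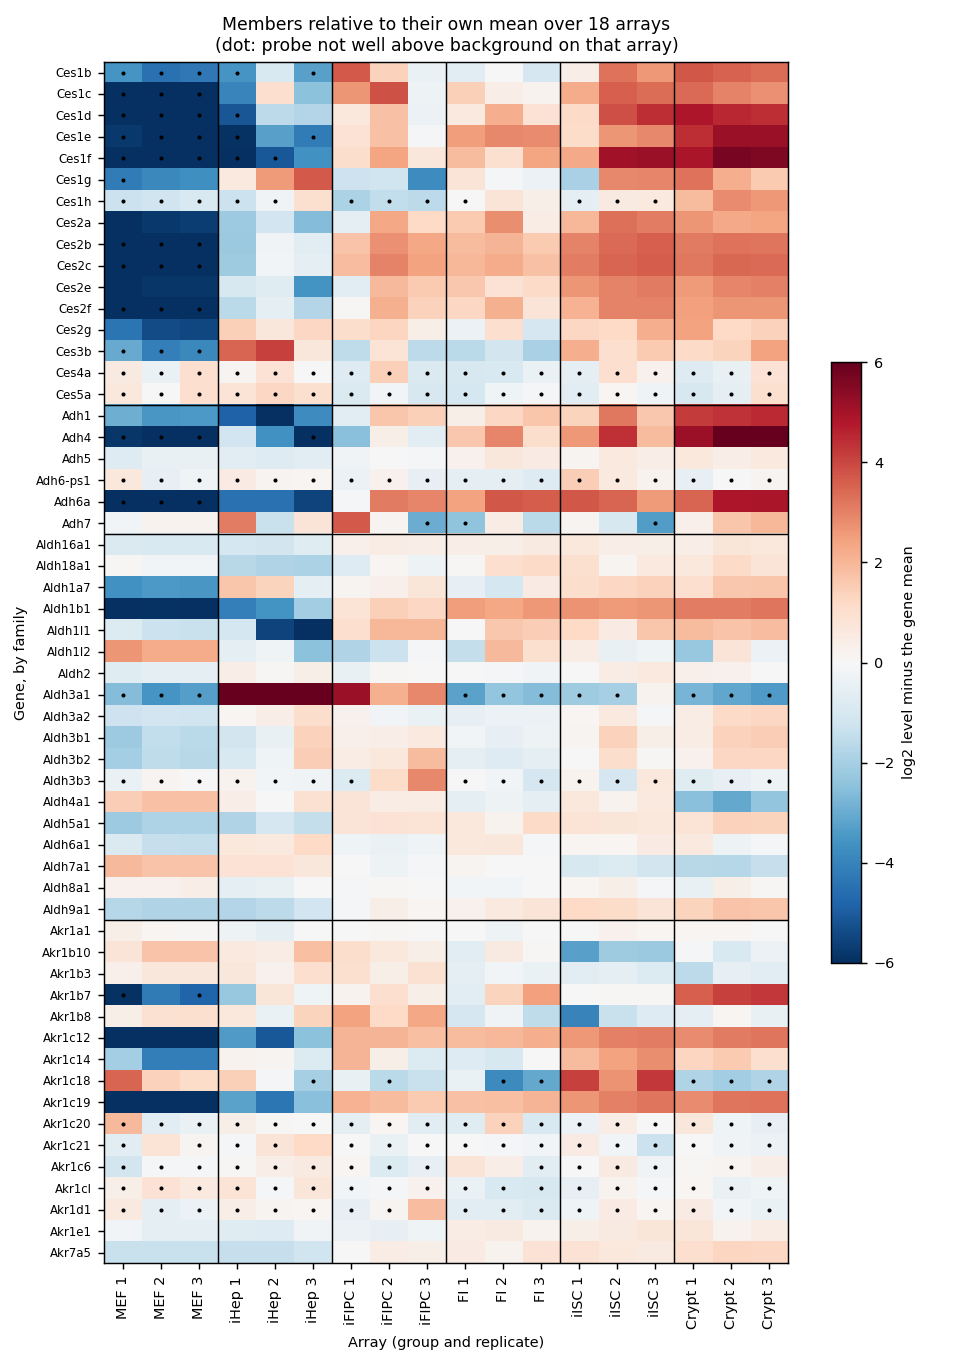
Log2 level of each of the 56 genes on each of the 18 arrays, as the difference from the gene's own mean over the arrays (colour, cut at 6 log2 units either side), with the groups separated by lines and a dot where the probe was not well above background. Rows of dots mark the 5 genes not detected on any array, and the blue block at the upper left marks the Ces genes in MEFs.

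Fibroblasts were compared with iHep cells and with both induced organoids. In iHep cells 26 of 41 tested members were called against MEF (21 higher, 5 lower), where 27.8% of all genes tested were called, 11.9% higher and 15.9% lower. In iFIPC organoids 33 of 46 were called (29 higher, 4 lower; all genes 43.5%, 20.2% higher and 23.3% lower), and in iISC organoids 37 of 45 (31 higher, 6 lower; all genes 48.5%, 23.1% higher and 25.5% lower). Samples did not overlap with MEF for 62.6%, 79.2% and 80.7% of all genes in iHep, iFIPC and iISC, against which a lack of overlap in a single member is to be read. These 3 comparisons share the MEF samples, so their counts are not independent. The median difference of the tested members was 1.75, 2.78 and 2.78 log2 for iHep, iFIPC and iISC (1.12, 2.77 and 2.78 with genes undetected in MEFs set at their lower bound), against -0.11, -0.03 and -0.01 over all genes tested. Of the tested members 7, 12 and 11 were not above background on any MEF array, and these could pass the filter only by being higher in the other group. Akr1b7 and Ces1g, above background on 1 and 2 of 3 MEF arrays, could also pass only through the other group. With the slide as a term in the fit of iHep against MEF, 22 members were called (18 higher, 4 lower), of which 21 were among the 26. Within the slide that holds the 3 iHep arrays but only 1 MEF array, 7 were called.

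Of the Ces genes 9 of 9 tested were called higher in iHep cells, 12 of 13 in iFIPC and 13 of 13 in iISC organoids. Over all genes 11.9%, 20.2% and 23.1% were called higher in these comparisons. Of the tested Ces genes 5, 9 and 9 were not above background on any MEF array. These could pass the filter only by being higher, so their direction was fixed by it. Of the remaining 4 genes, Ces2a, Ces2e and Ces2g were above background on all MEF arrays and could have moved either way. Ces1g was above background on 2 of 3 MEF arrays, so it too could be tested only through the other group. Ces3b, among the 12 in iFIPC, was only at least 1.711-fold above MEF; its call was lost without MEF replicate 2 or iFIPC replicate 2 (adjusted p up to 0.1223, limma), and with normexp background correction its difference was -0.052. Ces2b, an esterase of liver and small intestine, had levels of -7.25, -6.65 and -7.27 in MEFs, where no array was above background, and 0.31, 2.32 and 1.88 in iHep cells. Its levels were 4.23, 5.28 and 4.84 in iFIPC organoids, 4.43, 4.58 and 4.11 in FI, 5.49, 5.9 and 6.12 in iISC, and 5.62, 5.76 and 5.75 in Crypt. The groups followed the same order for its neighbour Ces2c, a Ces2 enzyme known to hydrolyse lipids and drugs, and neither MEF nor iHep samples overlapped with any organoid sample. On the probe used, Ces2b was at least 206-fold higher in iHep than in MEF (adjusted p = 1.437e-08, limma). In iFIPC and iISC it was at least 2002-fold and 4140-fold higher. The bounds for Ces2c in iHep, iFIPC and iISC were 127.8-fold, 1320-fold and 2612-fold. The bound sets each MEF array at the lowest signal it could still separate from background. A second probe that matches Ces2b alone was above background on 17 arrays, and so on MEF arrays too. Its means were -5.97 in MEFs, -1.15 in iHep, 1.94 in iFIPC and 2.95 in iISC. These differences are smaller than the Ces2b bounds, which hold only for the probe used. A second Ces2c probe had means of -7.41, -0.49, 2.77 and 3.9, slightly under the Ces2c bounds.

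Other Ces2 genes were already measurable in fibroblasts. Ces2a, Ces2e and Ces2g were well above background on all MEF arrays, and iHep cells exceeded them by 3.93 ± 0.77, 4.62 ± 0.80 and 6.00 ± 0.57 log2 (adjusted p = 0.001124, 0.0004907 and 2.948e-06 by limma). Ces2g stood at 2.36, 1.61 and 2.17 in iHep cells and at 2, 2.23 and 1.32 in iFIPC organoids, so that these groups overlapped. Ces2e rose further, from 2.72, 2.96 and 0.11 in iHep cells to 6.35, 6.66 and 6.82 in iISC organoids. The Ces1 genes, a cluster of lipid esterases and plasma esterases, were unevenly detected in iHep cells. Ces1c and Ces1g were above background on all 3 iHep arrays, while Ces1b, Ces1e and Ces1f were each above background on 1 of 3 iHep arrays and Ces1d on 2, and iHep 1 was the lowest of the 3 for each of these 4. Ces1f reached 0.17, 1.49 and -0.24 in iFIPC and 1.39, 4.16 and 4.28 in iISC organoids, at least 103.7-fold and 721.1-fold above MEF. Ces1d, the main triacylglycerol hydrolase of the family, was at least 35.23-fold and 193.1-fold above MEF in iFIPC and iISC organoids, and Ces1e, which holds beta-glucuronidase in the endoplasmic reticulum, at least 29.46-fold and 75.79-fold. The Ces1c probe matches transcripts of both Ces1b and Ces1c, and a second probe that matches Ces1c alone gave the same order of MEF, iHep, FI and iFIPC.

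**Figure D2:**
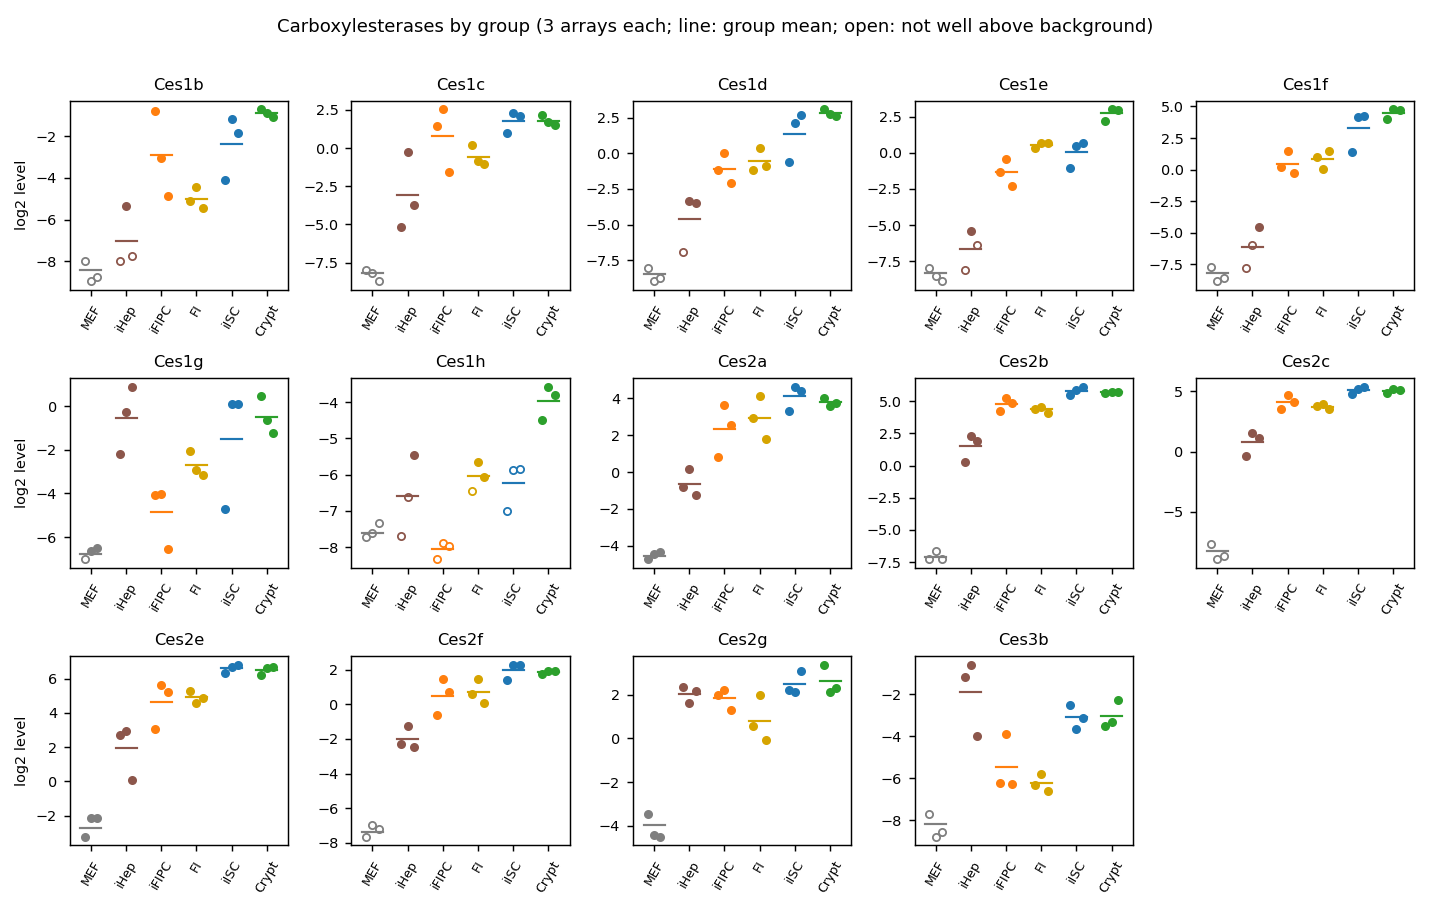
Log2 level of 14 carboxylesterase genes in the 6 groups, 1 point per array, with the group mean as a line and open points where the probe was not well above background. Mean levels of the 4 kinds of organoid lie above the MEF mean in every panel except Ces1h, and the iHep mean is the highest for Ces3b; each panel has its own axis.

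Against iHep cells, 26 of 45 tested members were called in iFIPC organoids (22 higher, 4 lower; all genes 34.1%, 17.5% higher and 16.6% lower) and 31 of 46 in iISC organoids (26 higher, 5 lower; all genes 39.8%, 20.5% higher and 19.3% lower). Samples did not overlap with iHep for 64.5% of all genes in iFIPC and 67.6% in iISC. Of the Ces genes, 10 rose and 2 fell in iFIPC, and 10 rose and none fell in iISC. Among those that rose, Ces1b, Ces1d, Ces1e and Ces1f were above background on 1, 2, 1 and 1 of 3 iHep arrays. They could be tested only through the organoids, where they were higher. The 2 that fell in iFIPC, Ces1g and Ces3b, are known mainly as liver esterases. Ces1g had levels of -2.2, -0.26 and 0.89 in iHep cells and -4.05, -4.01 and -6.55 in iFIPC organoids, with no overlap, and was lower by 4.35 ± 1.18 log2 in iFIPC (adjusted p = 0.006733, limma). In iISC organoids it was uneven, at -4.72, 0.09 and 0.11, and its difference from iHep was -0.98 ± 1.18 (adjusted p = 0.4821, limma). Ces3b had levels of -1.17, -0.6 and -3.99 in iHep cells, -6.2, -3.88 and -6.25 in iFIPC, and between -3.65 and -2.27 in iISC and Crypt. iHep 3 lay just below iFIPC 2 in Ces3b, and the difference was -3.53 ± 0.81 (adjusted p = 0.002294, limma). Summed hepatocyte marker levels were 232 to 1110 in iHep and 3.53 to 9.35 in iFIPC cultures, and their part in these differences was not tested.

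The upstream stretches of Ces1g and Ces3b are printed because they are the esterases that departed from the family, with the class V alcohol dehydrogenase Adh6a beside them as a gene that did not. RefSeq promoter windows on GRCm38.p6 were found for 45 of the 56 genes (48 windows), and the 250 bases before the start of transcription were searched on both strands for TATAAA, for the CDX2-type motif TTTATNG, for the antioxidant response element TGACNNNGC and for the HNF4-type CAAAGTCCA. Capitals mark every match; a TATAAA followed or preceded by the right bases is also a TTTATNG match on the other strand, so both can share letters. Ces1g (chr8:93337210-93337459, minus strand), Ces3b (chr8:105083505-105083754, plus strand) and Adh6a (chr3:138313036-138313285, plus strand) read, 5′ to 3′ up to the base before the start:
Ces1g: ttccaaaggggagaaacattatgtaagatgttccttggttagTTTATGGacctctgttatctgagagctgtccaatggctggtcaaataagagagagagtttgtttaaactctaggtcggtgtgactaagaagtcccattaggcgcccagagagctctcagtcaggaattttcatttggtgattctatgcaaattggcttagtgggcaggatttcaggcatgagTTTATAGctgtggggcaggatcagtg
Ces3b: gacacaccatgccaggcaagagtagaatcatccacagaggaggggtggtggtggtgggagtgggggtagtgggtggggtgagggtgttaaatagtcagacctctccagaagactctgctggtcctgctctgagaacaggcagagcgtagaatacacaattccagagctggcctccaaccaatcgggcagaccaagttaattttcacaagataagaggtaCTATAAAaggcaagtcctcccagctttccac
Adh6a: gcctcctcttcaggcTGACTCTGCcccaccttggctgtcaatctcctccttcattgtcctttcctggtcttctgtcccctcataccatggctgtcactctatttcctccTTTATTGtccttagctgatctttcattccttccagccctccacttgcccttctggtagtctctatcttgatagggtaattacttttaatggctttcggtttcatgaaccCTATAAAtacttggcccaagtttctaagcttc
These are the only 3 of the 48 member windows with TATAAA, on either strand, starting 35 to 20 bases before the start. Of all 32851 windows 2.26% hold it at that position. In Ces1g it lies on the opposite strand. Since the windows printed are exactly those that hold it, they give no comparison with member windows that lack it. Anywhere in the 250 bases, TATAAA was found in 18.75% of member windows and 12.37% of all windows, TTTATNG in 16.67% and 9.81%, and TGACNNNGC in 6.25% and 10.16%. CAAAGTCCA was found in no member window, against 0.38% of all windows. A match of letters is a description of the sequence and not a measured site, and whether any match bears on the levels was not tested.

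Among the alcohol dehydrogenases, 1 of 4 tested rose in iHep cells, 3 of 5 in iFIPC and 3 of 5 in iISC organoids over MEF. The shares called were 25%, 60% and 60%, against 27.8%, 43.5% and 48.5% of all genes, and that in iHep cells lay under the background. Adh6a was not above background on any MEF array and rose at least 2.176-fold in iHep, 246.3-fold in iFIPC and 591.1-fold in iISC (adjusted p = 0.009043, 3.942e-07 and 9.544e-08 by limma); the call in iHep cells was lost without MEF replicate 2 (adjusted p = 0.07561). Adh4, the class II enzyme that oxidises retinol and larger alcohols, had levels of -3.13, -5.61 and -8.33 in iHep cells, where 2 of 3 arrays were above background, and of -4.5, -1.64 and -2.61 in iFIPC organoids. It stood at -0.35, 0.94 and -0.94 in FI, 0.63, 2.42 and -0.07 in iISC and 3.17, 4.45 and 4.83 in Crypt, so that only Crypt was clear of all others. Its neighbour Adh1, the class I enzyme that oxidises ethanol and retinol, was detected everywhere: at 0.18, -0.41 and -0.37 in MEFs, -1.76, -3.28 and -0.68 in iHep cells, 2.39, 4.75 and 4.53 in iFIPC and 7.3, 7.42 and 7.58 in Crypt. All 3 iHep arrays lay below all MEF arrays for Adh1, but the difference of -1.80 ± 0.80 log2 did not pass (adjusted p = 0.08488, limma). Against iHep cells Adh1 was higher by 5.80 ± 0.72 in iFIPC and by 7.02 ± 0.72 in iISC organoids (adjusted p = 2.013e-05 and 2.436e-06, limma). Adh5, the glutathione-dependent formaldehyde dehydrogenase that nearly all cells express, ranged from 4.67 to 6.12 over the 18 arrays. It was called higher in iISC organoids than in iHep cells. That difference was 0.98 to 1.19 log2 with single samples left out, and the call was lost without iISC replicate 2. Adh7, the class IV enzyme of the stomach, was called in no comparison, and its highest levels were -0.66 in iFIPC 1 and -1.27 in iHep 1, the other iFIPC arrays being at -4.18 and -7.32.

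The aldehyde dehydrogenases moved in both directions. Against MEF, 7 rose and 5 fell of 17 tested in iHep cells, 9 rose and 3 fell of 17 in iFIPC, and 10 rose and 3 fell of 16 in iISC organoids. The shares called were 70.6%, 70.6% and 81.2%, against 27.8%, 43.5% and 48.5% of all genes. Aldh1b1, a mitochondrial enzyme that oxidises acetaldehyde and retinal, had levels of -2.69, -2.21 and -2.33 in MEFs, -0.4, 0.1 and 1.62 in iHep cells and 4.5, 5.11 and 4.95 in iFIPC organoids. It lay between 6.01 and 6.89 in FI, iISC and Crypt organoids, so that the 4 levels MEF, iHep, iFIPC and the remaining organoids did not overlap. The rises over MEF were 2.92 ± 0.42, 7.33 ± 0.42 and 8.82 ± 0.42 log2 in iHep, iFIPC and iISC (adjusted p = 9.908e-05, 9.329e-09 and 1.418e-09 by limma). Aldh1a7, a cytosolic enzyme close in sequence to Aldh1a1, rose to a similar height in all 3, by 4.38 ± 0.56, 3.95 ± 0.56 and 4.79 ± 0.56. Aldh5a1 (succinic semialdehyde), Aldh9a1 (trimethylaminobutyraldehyde) and Aldh16a1 rose by 1.28 to 2.84 log2 in both induced organoids and were not called in iHep cells. Aldh6a1, of valine breakdown, rose in iHep cells by 1.94 ± 0.30 and in iISC by 1.38 ± 0.30.

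Aldh3a1, an aldehyde dehydrogenase abundant in cornea and stomach, was detected in iHep cells and iFIPC organoids and almost nowhere else. Its levels were 2.01, 0.72 and 2.21 in iHep cells and -0.06, -3.11 and -2.35 in iFIPC organoids. No array of MEF, FI or Crypt was above background, where levels were -8.8 to -7.6, and 1 of 3 iISC arrays was (-7.39, -7.22 and -5.03). The iHep and iFIPC samples were therefore clear of each other and of all other groups. Aldh3a1 was at least 233.8-fold higher in iHep and at least 20.79-fold higher in iFIPC than in MEF (adjusted p = 9.721e-07 and 2.147e-05, limma), and lower in iFIPC than in iHep by 3.49 ± 0.75 log2 (adjusted p = 0.001451, limma). The summed stomach marker levels were high in the same groups and low in the other 4, as given above. Of the 8 markers, 6 were above background on every iHep array and 7 on every iFIPC array. That count does not set these groups apart, being 6 in Crypt, 5 in FI, 4 in iISC and 3 in MEF. In iHep cells the high levels were those of Gkn2 (7, 5.78 and 7.01) and Tff1 (4.88, 5.65 and 8.17), and all other stomach markers lay at -0.01 or below. The part of stomach-like cells in the Aldh3a1 level was not tested. In bulk RNA, fewer cells of a type and less RNA per cell cannot be told apart, here or below.

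Aldh7a1 was among the aldehyde dehydrogenases lower than in MEFs. This enzyme of lysine breakdown had levels of -0.05, -0.3 and -0.28 in MEFs, -1.16, -1.13 and -1.32 in iHep cells, -1.99, -2.29 and -2.11 in iFIPC, -1.85, -2.01 and -2.01 in FI, -2.97, -2.81 and -3.1 in iISC and -3.66, -3.7 and -3.41 in Crypt. Only iFIPC and FI overlapped, and the falls from MEF were 1.03 ± 0.14, 1.96 ± 0.14 and 2.79 ± 0.14 log2 in iHep, iFIPC and iISC. Without MEF replicate 1 or iHep replicate 3 the fall in iHep cells was under the size of 1 needed for a call, at 0.91 or more. Aldh4a1, which completes proline breakdown, fell by 1.16 ± 0.26, 1.06 ± 0.26 and 1.13 ± 0.26 in the same order (adjusted p = 0.002501, 0.002648 and 0.001531 by limma), and each of these lay at or under 1 without 1 of the samples. Aldh18a1, which makes proline, fell in iHep cells alone of the 3, from 1.28 to 1.51 in MEFs to -0.45 to -0.22 (by 1.73 ± 0.33, adjusted p = 0.0009485, limma), and was higher in both induced organoids than in iHep cells, by 1.48 ± 0.30 and 2.36 ± 0.30. Aldh1l2, the mitochondrial folate enzyme, fell in iHep, iFIPC and iISC by 3.51 ± 1.02, 3.48 ± 1.02 and 2.52 ± 1.02, calls that were each lost without MEF replicate 1 (highest adjusted p = 0.07817, 0.05767 and 0.1574 over samples left out, limma). Its cytosolic counterpart Aldh1l1 was uneven in iHep cells, at 0.3, -4.18 and -5.45, and its fall there of 3.41 ± 1.18 was lost when any of 4 of the 5 samples was left out (adjusted p up to 0.1423).

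Of the aldo-keto reductases, 4 rose and none fell of 11 tested in iHep cells, 5 rose and 1 fell in iFIPC and 5 rose and 3 fell in iISC organoids against MEF. The shares called were 36.4%, 54.5% and 72.7%, against 27.8%, 43.5% and 48.5% of all genes. Those in iHep and iFIPC lay near that background. Akr1c12 and Akr1c19, neighbours in the chromosome 13 cluster, rose together. Akr1c19 had levels of -3.53, -3.69 and -3.54 in MEFs, -0.32, -1.46 and 0.38 in iHep cells, 4.96, 4.78 and 4.44 in iFIPC and 5.51, 5.89 and 6.1 in iISC organoids. None of these groups overlapped, and the rises over MEF were 3.11 ± 0.39, 8.30 ± 0.39 and 9.41 ± 0.39 log2 (adjusted p = 3.129e-05, 1.598e-09 and 3.745e-10 by limma). The corresponding rises of Akr1c12 were 2.63 ± 0.51, 8.23 ± 0.51 and 9.19 ± 0.51. The probe used for Akr1c12 also matches Akr1c13, and a probe for Akr1c12 alone had means of -5.01 in MEFs, -1.74 in iHep cells, 3.79 in iFIPC and 4.75 in iISC organoids. Akr1c14, a 3-alpha-hydroxysteroid dehydrogenase of the same cluster, rose by 2.96 ± 0.72, 3.64 ± 0.72 and 5.47 ± 0.72; its rise in iHep cells was lost without MEF replicate 2 (adjusted p = 0.09324).

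The Akr1b genes, aldose reductases and their relatives within 119 kb on chromosome 6 (mm9), did not move as a block. Akr1b7, which detoxifies aldehydes from steroid and lipid metabolism, rose over MEF by 4.63 ± 0.86 in iHep, 5.75 ± 0.86 in iFIPC and 5.26 ± 0.86 in iISC. It was above background on only 1 of 3 MEF arrays, so it was tested only through the other group. These sizes rest on MEF values mostly not separated from background. Akr1b3 (aldose reductase), Akr1b8 and Akr1b10 were high in MEFs and were called in neither iHep nor iFIPC. In iISC organoids they fell against MEF by 1.18 ± 0.31, 2.69 ± 0.81 and 3.79 ± 0.49 log2 (adjusted p = 0.003877, 0.009338 and 1.648e-05 by limma), and against iHep cells by 1.33 ± 0.27, 2.56 ± 0.72 and 3.50 ± 0.44. The fall of Akr1b8 from MEF was lost without MEF replicate 2 (adjusted p = 0.06573). Akr1a1, the broadly expressed aldehyde reductase, ranged from 5 to 5.95 over the 18 arrays and was called in no comparison.

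Native adult and fetal organoids were compared to ask how the enzymes differ with stage. Crypt cultures are labelled as budding organoids only, and FI cultures as spherical and budding. Stage and organoid form therefore cannot be told apart, here or in the comparisons of stage below. In Crypt against FI organoids 21 of 45 tested members were called (46.7%), 19 higher and 2 lower, where 9.15% of all genes tested were called, 3.16% higher and 5.99% lower. The median difference of the members was 1.18 log2, against -0.02 over all genes. The samples of the 2 groups did not overlap for 30 members, and for 35.8% of all genes. Of the 14 tested Ces genes 9 rose and all 14 had positive differences. Among them Ces1h, above background on 2 of 3 FI arrays, could be tested only through Crypt. Of the other families, 2 of 5 Adh, 5 of 16 Aldh and 3 of 10 Akr genes rose. Summed enterocyte marker levels were 779 to 1040 in Crypt and 212 to 608 in FI organoids, and their part in these differences was not tested.

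Ces1f had levels of 4, 4.79 and 4.72 in Crypt against 1.01, 0.04 and 1.47 in FI organoids, a difference of 3.66 ± 0.76 log2 (adjusted p = 0.01132, limma). Ces1b, Ces1d and Ces3b differed by 4.09 ± 0.96, 3.39 ± 0.83 and 3.21 ± 0.62, also without overlap. Of the Adh genes, Adh4 was higher in Crypt by 4.27 ± 0.86 and Adh1 by 3.25 ± 0.66 (adjusted p = 0.01025 and 0.01016, limma). Akr1b7 stood at 2.1, 2.63 and 2.78 in Crypt and at -2.11, -0.12 and 0.98 in FI organoids, a difference of 2.92 ± 0.62. Smaller rises of 1.03 to 1.80 log2 were seen in Aldh1a7, Aldh3a2 (the fatty aldehyde dehydrogenase), Aldh3b1, Aldh3b2, Aldh9a1, Akr1c12 and Akr1c19. A second Aldh3b2 probe, well above background on 12 of 18 arrays, gave means of -0.01 in iFIPC and -6.41 in FI organoids where the probe used gave -0.56 and -2.21. The 2 genes that fell were Aldh4a1, by 2.15 ± 0.20 (adjusted p = 0.0002968, limma), and Aldh7a1, by 1.63 ± 0.12 (adjusted p = 0.0001621, limma).

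Slides limit this comparison. The FI arrays share a slide with Crypt 1, while Crypt 2 and Crypt 3 lie on another. With the slide as a term in the fit, 4 members were called, 1 higher and 3 lower in place of 19 and 2, of which 3 (Aldh4a1, Aldh7a1 and Ces3b) were among the 21, and within the shared slide 1 was (Aldh4a1); over all genes the count fell from 1299 to 326. All 21 kept their direction, and 15 kept a difference of at least 1 log2. Without each sample in turn 11 of the 21 stayed called, and without Crypt replicate 3 the count was 12. The calls of Akr1b7, Akr1c12, Aldh3b1, Aldh3b2, Aldh9a1, Ces1b, Ces1d, Ces1e, Ces1f and Ces2g each depended on 1 or more samples, with adjusted p up to 0.1301.

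The same stages were compared in converted cells, where the labels of iISC and iFIPC differ in organoid form in the same way. In iISC against iFIPC organoids 12 of 45 tested members were called (8 higher, 4 lower), where 8.05% of all genes were called, 3.22% higher and 4.83% lower, and 38.3% had no overlap; the median difference was 0.88 log2 against 0.05. Ces1f, Ces2b, Ces2e and Ces3b, with Adh4, Aldh1b1, Akr1c18 and Akr1c19, were higher in iISC organoids. Akr1c18, above background on 2 of 3 iFIPC arrays, could be tested only through iISC. All 13 tested Ces genes had positive differences. Summed enterocyte marker levels were 488 to 637 in iISC and 143 to 352 in iFIPC organoids, with no overlap, and their part was not tested. Aldh1b1 rose by 1.49 ± 0.15 (adjusted p = 0.000532, limma) and Adh4 by 3.91 ± 0.86 (adjusted p = 0.01791). With the slide as a term, 3 of the 12 stayed called (Aldh1b1, Akr1b3 and Akr1b10), and in the slide that holds the 3 iISC arrays and iFIPC 2 none was, by limma with 12 of 12 in the same direction. The calls of Adh4, Akr1c19, Ces1f, Ces2b, Ces2e and Ces3b were lost without 1 or more samples (adjusted p up to 0.1186), and 7 members were called without iFIPC replicate 3 or without iISC replicate 2.

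The 4 genes lower in iISC than in iFIPC organoids were Aldh3a1 and 3 of the Akr1b cluster. Aldh3a1, above background on 1 of 3 iISC arrays, could be tested only through iFIPC. Akr1b10, which reduces aliphatic and retinal aldehydes, had levels of 2.15, 1.75 and 1.46 in iFIPC and -2.16, -1.03 and -1.13 in iISC organoids. Akr1b8, a growth factor-induced reductase, had levels of 6.47, 5.24 and 6.37 in iFIPC and 0.03, 2.73 and 3.3 in iISC, and Akr1b3 levels of 4.38, 3.76 and 4.33 and 2.74, 2.84 and 2.56. The groups did not overlap for any of these 3, which fell by 3.23 ± 0.39, 4.01 ± 0.75 and 1.44 ± 0.27 log2 (adjusted p = 0.001182, 0.00897 and 0.008854 by limma). Their neighbour Akr1b7 was at -1.24, -0.46 and -1.14 in iFIPC and at -1.5, -1.39 and -1.42 in iISC organoids, a difference of -0.49 ± 0.62 (adjusted p = 0.6392, limma). In the native pair, Akr1b3, Akr1b8 and Akr1b10 differed by -0.56 ± 0.27, 0.63 ± 0.75 and -0.43 ± 0.39 between Crypt and FI organoids, and none passed (adjusted p = 0.1809, 0.5931 and 0.4737, limma).

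The upstream bases of these neighbours are printed since they lie side by side and the first pair was called lower in iISC than in iFIPC organoids while Akr1b7 was not called: Akr1b8 (chr6:34353896-34354145), Akr1b10 (chr6:34383997-34384246) and Akr1b7 (chr6:34412112-34412361), all on the plus strand of GRCm38.p6, from RefSeq, with capitals for matches to the motifs above:
Akr1b8: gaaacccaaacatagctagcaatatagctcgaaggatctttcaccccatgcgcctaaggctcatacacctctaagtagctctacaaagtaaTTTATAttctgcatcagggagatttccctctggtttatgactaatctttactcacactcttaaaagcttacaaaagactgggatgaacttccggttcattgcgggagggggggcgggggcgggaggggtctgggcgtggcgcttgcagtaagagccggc
Akr1b10: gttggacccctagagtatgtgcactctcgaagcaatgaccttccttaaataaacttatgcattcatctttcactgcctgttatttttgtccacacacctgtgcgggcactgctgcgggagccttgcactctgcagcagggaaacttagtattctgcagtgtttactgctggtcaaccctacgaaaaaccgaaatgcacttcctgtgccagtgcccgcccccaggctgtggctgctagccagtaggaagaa
Akr1b7: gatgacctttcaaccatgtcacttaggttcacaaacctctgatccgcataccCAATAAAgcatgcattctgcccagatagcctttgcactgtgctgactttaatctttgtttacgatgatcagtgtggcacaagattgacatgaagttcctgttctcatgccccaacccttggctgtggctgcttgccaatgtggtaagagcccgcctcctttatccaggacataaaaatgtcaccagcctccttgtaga
The Akr1b7 window holds 1 TTTATNG match on the minus strand and Akr1b8 1 TATAAA on the minus strand, and Akr1b10 has no match to any of the motifs searched. None of the 3 holds the letters TGACNNNGC in these bases, and nothing follows from that about a factor. Akr1b3 had no window in the table.

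**Figure D3:**
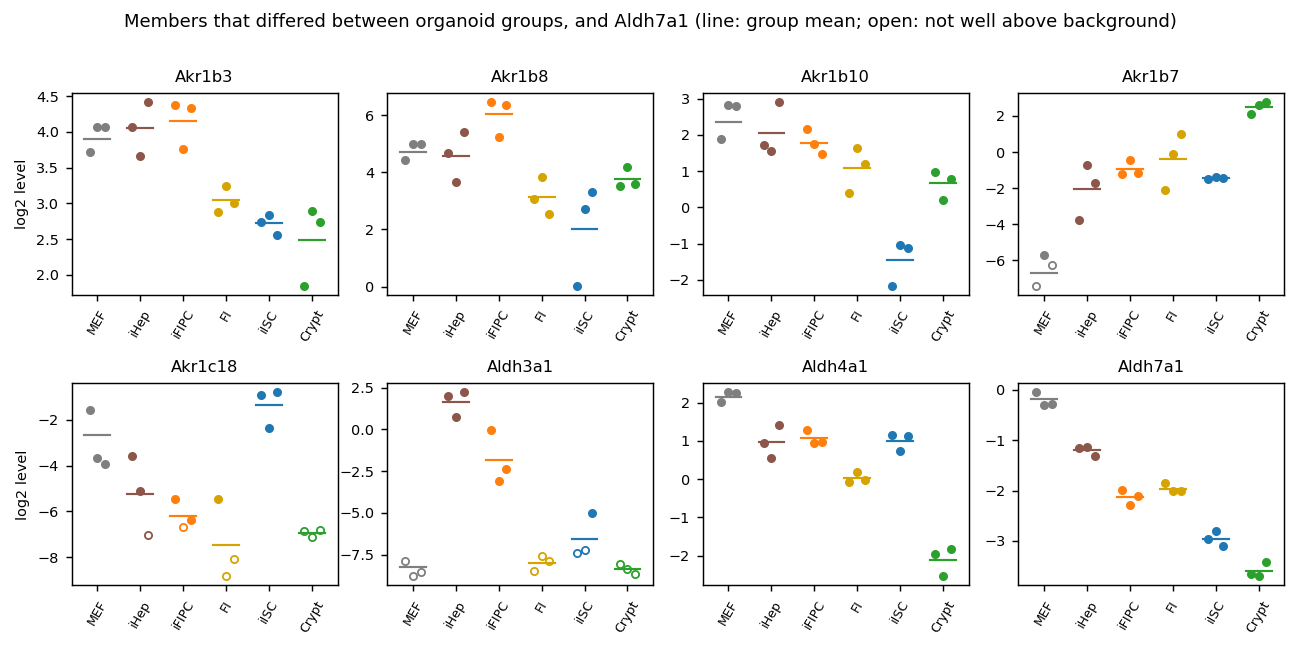
Log2 level of 8 genes in the 6 groups, 1 point per array, with the group mean as a line and open points where the probe was not well above background; each panel has its own axis. Akr1b3, Akr1b8 and Akr1b10 are lower in iISC than in iFIPC organoids while Akr1b7 is highest in Crypt, Aldh4a1 is lowest in Crypt, Akr1c18 is high in iISC and not detected in Crypt, and Aldh3a1 is high in iHep and iFIPC.

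Induced and native organoids of the adult type were compared next. In iISC against Crypt organoids 6 of 46 tested members were called (13%), 2 higher and 4 lower, where 3.4% of all genes were called, 2.09% higher and 1.31% lower, and the samples did not overlap for 18 members and for 25.5% of all genes. Of the 6, Akr1c18 was above background on no Crypt array and Ces1h on no iISC array. Each could be tested only through the group where it was higher, so its direction was fixed by the filter. The median difference was -0.18 log2 against -0.01, and that of the 5 tested Adh genes, all with negative differences and none called, was -2.31. No array of Crypt was above background for Akr1c18, the 20-alpha-hydroxysteroid dehydrogenase that inactivates progesterone (-6.87, -7.11 and -6.83), while iISC organoids were at -0.93, -2.34 and -0.8. The iISC level exceeded that of Crypt at least 38.55-fold (adjusted p = 0.005282, limma), and higher than in iFIPC organoids by 4.83 ± 0.77 log2. MEFs also held it, at -1.56, -3.67 and -3.94, and overlapped with the iISC samples. Aldh4a1 was at 1.15, 0.75 and 1.12 in iISC and at -1.97, -2.54 and -1.84 in Crypt organoids, a difference of 3.13 ± 0.19 (adjusted p = 0.000055, limma). MEF, iHep, iFIPC and FI organoids all lay at -0.07 or above for Aldh4a1, so Crypt stood alone.

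The 4 members lower in iISC than in Crypt organoids were Akr1b7, Akr1b10, Ces1e and Ces1h. Akr1b7 fell by 3.94 ± 0.61, Ces1e by 2.71 ± 0.52 and Akr1b10 by 2.10 ± 0.39 log2 (adjusted p = 0.008957, 0.02047 and 0.01684 by limma). Ces1h, not above background on any iISC array, was at least 4.183-fold lower than in Crypt. Adh1 and Adh4 were lower by 2.31 ± 0.65 and 3.16 ± 0.86 with no overlap, but did not pass (adjusted p = 0.07549 and 0.0672, limma). The iISC and Crypt arrays share no slide, and with the slide as a term Aldh4a1 alone stayed called, at 3.38 (adjusted p = 0.01791), while all 6 kept their direction. The call of Akr1b10 was lost without Crypt replicate 3 and that of Ces1e without Crypt replicate 2 or 3 (adjusted p up to 0.07052 and 0.08446).

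Among the fetal-type organoids, 9 of 44 tested members were called in iFIPC against FI (20.5%), 5 higher and 4 lower, where 10.8% of all genes were called, 5.74% higher and 5.03% lower, and 46.9% had no overlap; the median difference was -0.04 log2 against -0.08. The iFIPC level of Aldh3a1 exceeded that of FI at least 34.48-fold (adjusted p = 0.001309, limma). No FI array was above background for Aldh3a1, so it could be tested only through iFIPC and its direction was fixed by the filter. Akr1b8 and Akr1b3 were higher by 2.88 ± 0.75 and 1.11 ± 0.27, Aldh3b2 by 1.65 ± 0.42 and Aldh4a1 by 1.04 ± 0.20. Aldh1b1 was lower by 1.32 ± 0.15 with all iFIPC samples under all FI samples (adjusted p = 0.00079, limma), and Adh4, Ces1e and Aldh18a1 were lower by 2.80 ± 0.87, 1.90 ± 0.53 and 1.06 ± 0.33. No slide holds both groups, and with the slide as a term none of the 9 was called (lowest adjusted p = 0.05037, for Aldh1b1), although all kept their direction. Without 1 sample or another, all but Aldh1b1 and Aldh3a1 were lost in at least 1 fit (adjusted p up to 0.1409), and 4 members were called without iFIPC replicate 1 and 5 without FI replicate 2.

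Whether the stage difference itself differed between converted and native cells was tested as an interaction, iISC minus iFIPC against Crypt minus FI. It was called for 6 of 47 tested members (12.8%; all genes 5.3%, 3.29% higher and 2.01% lower), 2 higher and 4 lower in the converted pair. The stage difference of Aldh4a1 was -0.07 ± 0.20 in converted and -2.15 ± 0.20 in native organoids, and they differed by 2.08 ± 0.28 (adjusted p = 0.00619, limma). Akr1b10 differed by -2.80 ± 0.55, Akr1b8 by -4.63 ± 1.06, and Akr1b7 by -3.41 ± 0.88 (adjusted p = 0.02002, 0.03292 and 0.04622 by limma). The other 2 calls, Aldh3a1 and Akr1c18 (adjusted p = 0.04731 and 0.04482, limma), rest on a native pair that was not measured: Aldh3a1 was above background on 0 of 6 and Akr1c18 on 1 of 6 FI and Crypt arrays, neither was tested between Crypt and FI, and no size is given for them. Aldh1b1 and Aldh7a1 differed by 0.86 ± 0.21 and 0.80 ± 0.18, under the size needed for a call (adjusted p = 0.04162 and 0.02901). No Ces or Adh gene was called in this test, in which 1 of 14 Ces and 1 of 5 Adh genes had an unadjusted p under 0.05. With the slide as a term none of the 6 was called (adjusted p from 0.1016 to 0.4094), all keeping their direction. Leaving out single samples gave 1 to 10 calls, the fewest without Crypt replicate 3 and the most without Crypt replicate 1; 2 were called without iFIPC replicate 1, iFIPC replicate 3 or Crypt replicate 2, and 3 without FI replicate 2 or iISC replicate 1. Aldh4a1 was called each time.

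**Figure D4:**
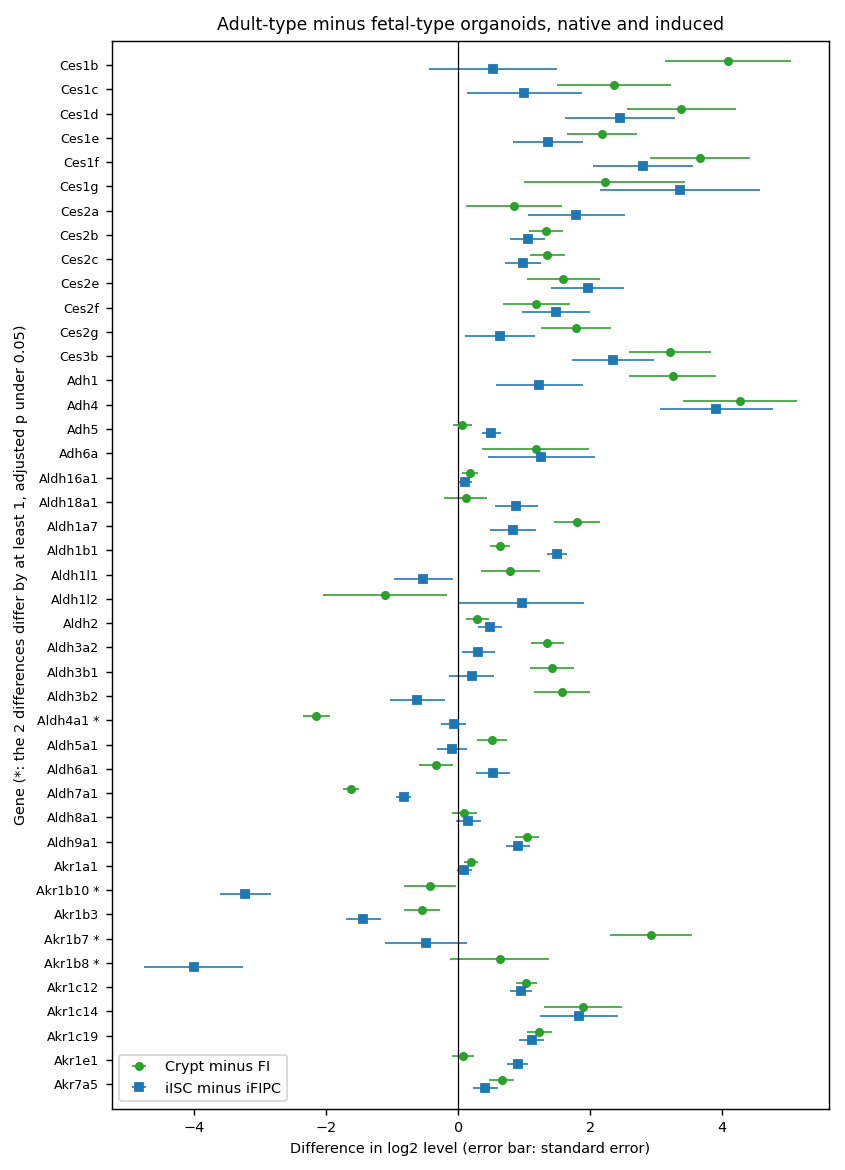
Difference in log2 level between adult-type and fetal-type organoids for the 43 members tested in both pairs, native (Crypt minus FI, circles) and induced (iISC minus iFIPC, squares), with standard errors as bars and an asterisk at the 4 whose differences were called different. Most Ces and Adh genes lie right of 0 in both pairs, and Aldh4a1, Akr1b7, Akr1b8 and Akr1b10 separate the pairs.

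Other genes of the same chemistry were taken from fixed lists and are given by counts. Of 23 other carbonyl reductases and dehydrogenases, 3 rose and 1 fell of 18 tested in iHep cells, 12 rose and none fell of 22 in iFIPC and 13 rose and 3 fell of 22 in iISC organoids against MEF. Over all genes 27.8%, 43.5% and 48.5% were called in these comparisons, and the count in iHep cells lies under that background; the counts of the lists below are to be read against the same shares, and against 9.15%, 10.8% and 3.4% for Crypt against FI, iFIPC against FI and iISC against Crypt. Hsd17b13 and Rdh7, a lipid droplet enzyme and a retinol dehydrogenase, were at least 274-fold and 211.5-fold higher in iFIPC than in MEF. Of the other esterases and hydrolases 8, 7 and 7 rose and 0, 2 and 4 fell of 17, 19 and 18 tested, with Aadac, a microsomal deacetylase, at least 408.6-fold higher in iFIPC and 1506-fold in iISC, and Ephx2, the soluble epoxide hydrolase, higher by 6.44 ± 0.27 log2 in iHep cells. Between Crypt and FI organoids 5 rose and none fell of 23 in the first list, and 5 rose and 1 fell of 20 in the second.

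Targets and regulators known for these families were counted in the same way. A list of 21 genes held targets of NRF2, the factor that responds to electrophiles, with Nfe2l2 (NRF2 itself) and Keap1. Its Nqo1 and Cbr3 are also in the list of carbonyl reductases. Of the 21, 12 rose and none fell in iHep cells, 15 rose and 1 fell in iFIPC, and 11 rose and 3 fell in iISC organoids against MEF. In iFIPC against FI organoids 6 rose and none fell, among them Hmox1 and Slc7a11 by 2.22 ± 0.62 and 2.04 ± 0.57 log2, and in iISC against Crypt none was called by limma (median -0.15). Of the nuclear receptors and liver-gut factors 8 rose and 1 fell of 18 tested in iHep cells, 13 rose and 3 fell of 21 in iFIPC, and 14 rose and 3 fell of 21 in iISC organoids. Hnf4a had levels of -0.54, -2.58 and 1.57 in iHep cells and 2.49 to 3.97 in the organoids, and was at least 52.05-fold, 587.3-fold and 957.6-fold above MEF. Cdx2 was at least 617.3-fold above MEF in iHep cells, at levels of 2.32 to 3.59. Organoids were as high or higher, at 3.59 to 4.41 in iFIPC and 4.95 to 6.24 in FI, iISC and Crypt. Whether any of these factors acts on the members was not tested.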

How the data were processed

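Total RNA was labelled with Cy3 and hybridised to 1-colour Agilent mouse arrays. The intensity of each probe is the processed signal that the authors deposited as scanner output. Per the submitters' processing notes, Agilent Feature Extraction 9.5.1.1 made it; per the file headers of the organoid arrays, version 10.7.1.1 did. The software's flags for signal well above background, saturation and outliers, deposited beside the intensity as yes or no values, were used as given. Genome build and probe annotation version are not given in the sources used here, except that probe positions carry mm9.

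From these values log2 of the processed signal minus each array's 75th percentile of it was computed, control and outlier spots were left out, spots of a probe were averaged, and a gene was represented by its brightest probe. A gene entered a comparison where, in 1 or more of the groups compared, all arrays had that probe well above background. MEF replicates 2 and 3 were averaged. Linear models were fitted to all genes with limma 3.58.1 in R 4.3.3, over 17 samples for comparisons with MEF or iHep and over the 12 organoid samples otherwise, with Benjamini-Hochberg adjustment over all genes tested. Calls needed an adjusted p under 0.05 and a log2 difference of at least 1. The scripts were tested on simulated data. Where no array of a group was above background, the fold is a bound. The members, gene lists and tests were chosen with earlier results of these data known. Every member could be named; by the naming rule, the called members with the largest differences in each family, those called against their family's direction, and widely expressed members or cluster neighbours were described, and from related lists up to 4 called genes. Alternatives were normexp background correction (offset 50), quantile normalization, the authors' deposited value table, no filter, mean over probes, all 18 arrays, only the groups compared, slide terms, replicate blocks and single samples left out. Precision is limited by the number of arrays, and 3 against 3 samples cannot reach an exact permutation p below 0.1. Promoter windows came from RefSeq on GRCm38.p6.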

Additional observations from a re-analysis of the deposited data

Results flagged for a closer look

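The difference between adult-type and fetal-type organoids differed between the induced and the native pair in a test of that difference (limma, 12 organoid samples) for 6 genes. It was more negative in the induced pair for Akr1b10 (-2.80 log2), Akr1b7 (-3.41), Akr1b8 (-4.63) and Aldh3a1 (-4.32), and more positive for Aldh4a1 (2.08) and Akr1c18 (4.30). The values of Aldh3a1 and Akr1c18 are not sizes of a measured change, since these genes were above background on 0 of 6 and 1 of 6 Crypt and FI arrays. With the slide as a term none of the 6 passed.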

How the results depend on the processing

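The numbers of members called against MEF or iHep cells stayed within 1.5 times under every alternative run, except iHep against MEF within the shared slide (7 in place of 26). With the slide as a term, 1 member was called in iISC against Crypt, 0 in iFIPC against FI, 4 in Crypt against FI, 4 in iISC against iFIPC and 0 in the stage difference between pairs (main counts 6, 9, 21, 12 and 6); within a shared slide 1 was called in Crypt against FI and 0 in iISC against iFIPC. Fitting only the groups compared gave 5 in iISC against iFIPC, and no filter on dim probes gave 3 in the stage difference. Leaving out single samples gave 4 to 9 in iFIPC against FI, 12 to 20 in Crypt against FI, 7 to 16 in iISC against iFIPC and 1 to 10 in the stage difference. The difference of Ces3b between iFIPC and MEF reversed to -0.052 with normexp background correction (adjusted p = 0.9353, limma). With the replicate number as a block the 10 counts were 26, 33, 37, 26, 31, 8, 8, 20, 10 and 4, all within 1.5 times. Deviations of same-numbered samples correlated from -0.41 to 0.36, so the numbers do not pair the samples. The cause of these changes was not tested. Ces3b was not above background on any MEF array, where its level has only a bound.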
